A study of Mus musculus with 21 samples.

Results

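The fibroblast growth factor (FGF) receptor family was followed through the 7 groups of a study of histone deacetylase (HDAC) inhibition in mouse medulloblastoma cells. It has 5 members, Fgfr1, Fgfr2, Fgfr3, Fgfr4 and Fgfrl1, taken by symbol from a table of 24047 genes. The family was chosen by the counts at 2 h, where Fgfr3 was among the genes that rose most with the inhibitor, so values at 2 h are given below as a description, with no test. The cells were SMB21, a line from a mouse tumour of the sonic hedgehog (SHH) class. They were kept in serum-free neural medium and exposed to the inhibitor quisinostat (JNJ), or to DMSO alone as the control, during 2 h or 24 h, which makes 4 groups. In 3 further groups a virus delivered a hairpin RNA (shRNA) that targets luciferase (shLuc, the control), Hdac1 (shHdac1) or Hdac2 (shHdac2), and puromycin selected the infected cells. No dose of quisinostat and no time after the virus is given in the sources used here, and all groups come from a single cell line. Each group has 3 numbered libraries, 21 in all. Whether these are separate cultures is not stated. The p-values therefore measure only how far libraries of the same group differ, pooled over the groups fitted together, which can be technical.

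FGF receptors are cell-surface receptor tyrosine kinases. An FGF ligand, bound together with a heparan sulphate chain, brings a pair of receptors together, and the active kinases signal through the adaptor FRS2 to the RAS and ERK cascade and to PI3 kinase. Fgfr1 to Fgfr4 encode receptors with a kinase, whereas Fgfrl1 encodes a receptor that binds FGF ligands and heparin but has no kinase domain. In the brain, Fgfr3 is known as a gene of astrocytes and of radial glia, and FGF signalling is known to counter the proliferative response of cerebellar granule neuron progenitors to SHH.

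The promoters of the members that were called higher at 24 h, Fgfr3 and Fgfrl1, are shown with that of Fgfr2, which was not called there. RefSeq promoter entries on GRCm38.p6 were found for 4 of the 5 members, all but Fgfr1. The deposited counts rest on another build, mm9, so the coordinates are those of the RefSeq table only. Each sequence is the 200 bases that end 51 bases before the annotated start, written 5′ to 3′ on the gene's strand. Capitals mark the GC box, GGGCGG or its reverse complement CCGCCC, searched on both strands, with overlapping matches counted singly. The first Fgfr3 start lies after chr5:33721474-33721673 and the second after chr5:33722056-33722255, both on the plus strand. The Fgfrl1 window is chr5:108693979-108694178, on the plus strand, and the Fgfr2 window chr7:130266859-130267058, on the minus strand.
Fgfr3, first start: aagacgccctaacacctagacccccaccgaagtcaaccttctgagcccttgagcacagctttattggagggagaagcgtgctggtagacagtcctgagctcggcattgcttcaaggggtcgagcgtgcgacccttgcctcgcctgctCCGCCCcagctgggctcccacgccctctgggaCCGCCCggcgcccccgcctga
Fgfr3, second start: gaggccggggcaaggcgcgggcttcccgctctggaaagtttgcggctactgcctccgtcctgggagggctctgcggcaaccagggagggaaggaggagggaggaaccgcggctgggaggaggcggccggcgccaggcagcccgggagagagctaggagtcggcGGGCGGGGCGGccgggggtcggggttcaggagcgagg
Fgfrl1: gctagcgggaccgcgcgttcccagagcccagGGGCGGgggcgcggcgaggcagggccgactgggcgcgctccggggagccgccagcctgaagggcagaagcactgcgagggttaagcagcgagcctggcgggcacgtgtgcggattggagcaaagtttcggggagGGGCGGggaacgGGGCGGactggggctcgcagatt
Fgfr2: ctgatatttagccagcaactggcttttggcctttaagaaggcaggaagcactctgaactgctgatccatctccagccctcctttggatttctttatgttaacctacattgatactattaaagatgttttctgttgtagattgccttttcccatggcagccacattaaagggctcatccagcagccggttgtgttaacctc
The windows of both Fgfr3 starts hold 2 GC boxes each, that of Fgfrl1 holds 3, and that of Fgfr2 holds 0. The Fgfr4 window, not printed because annotated exons overlap it, holds 1. Of 32851 promoter windows taken in the same way, 24.6% hold at least 1 GC box and 4.34% hold at least 3. The windows hold 14 and 20 CpG dinucleotides for Fgfr3, 23 for Fgfrl1, 12 for Fgfr4 and 1 for Fgfr2, against a median of 4 over all windows. These matches describe the letters of the windows and show no binding of a factor. Counts per gene do not tell which start was used in these cells. Fgfr4 was not called at 24 h either, and Fgfr1 has no window here. A link between GC boxes and the calls was not tested.

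Depth was 23094799 to 39341784 counts per library (median 31426312). Levels are CPM, the read counts divided by the scaled library size in the usual unit, and 3 counts, the lowest level read as present, were 0.0776 to 0.126 CPM across the libraries. On the first principal component of all 21 libraries (35.6% of the variance), shLuc replicate 3 lay at -57.1 and shLuc replicates 1 and 2 at 4.15 and 3.30. The JNJ 2 h libraries were spread as well, with replicates 1, 2 and 3 at 37.8, 16.5 and -11.5. The 6 DMSO libraries lay at -44.9 to -18.3. As in shLuc, replicates 1 and 2 were the nearest pair in shHdac1 (-26.6 and -27.2, replicate 3 at -28.5). The same held in shHdac2 (-4.33 and -7.40, replicate 3 at -17.5). If replicates 1 and 2 of a hairpin group are not separate cultures, n = 3 is too high there and the hairpin p-values are too low. In shHdac1, Hdac1 was at 30.6 ± 1.99 CPM against 94.7 ± 5.86 in shLuc (mean ± SD, n = 3 per group), and in shHdac2, Hdac2 was at 50.3 ± 3.08 against 318 ± 23.1 CPM, so both hairpins matched their labels. Each of the 8 markers of the granule lineage and SHH medulloblastoma exceeded 1 CPM in at least 1 library of every group, with summed levels of 708 to 1574 CPM. The 6 markers of microglia and leukocytes stayed under 1 CPM in every library. Of the astroglial markers, Aqp4, Aldh1l1 and Gja1 were under 1 CPM in every library, while the list of 8, which includes the glutamate transporter genes Slc1a2 and Slc1a3, summed to 310 to 1132 CPM.

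Fgfr1 and Fgfr2 supplied most of the receptor RNA in these cells, and Fgfr3 and Fgfr4 little. Levels between genes are compared per kilobase of the longest protein-coding transcript in GENCODE M21. In DMSO 2 h the level was 36.6 ± 4.24 CPM per kilobase for Fgfr1, 21.5 ± 5.45 for Fgfr2, 15.2 ± 1.94 for Fgfrl1, 0.504 ± 0.147 for Fgfr3 and 0.057 ± 0.0558 for Fgfr4 (mean ± SD, n = 3). Fgfr1 was highest and Fgfr4 lowest in all 7 groups. Fgfrl1 per kilobase stood at 44.3 ± 14.7 in JNJ 2 h, where Fgfr2 was at 33.1 ± 15.9, and at 24.1 ± 1.21 in JNJ 24 h, where Fgfr2 was at 23.7 ± 2.86. Within each JNJ 2 h library Fgfrl1 was above Fgfr2 (58.6 and 49.2, 44.8 and 32.6, and 29.3 and 17.5 in replicates 1, 2 and 3). In JNJ 24 h the order differed between libraries, with Fgfr2 above Fgfrl1 in replicate 1 only (27.0 and 22.8). Fgfr4 had 2 to 15 counts in every library (0.0576 to 0.606 CPM), near the lowest level read as present, and it did not reach the count filter of the shRNA libraries. So 5 of 5 members were tested in the JNJ and DMSO libraries and 4 of 5 in the shRNA libraries.

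**Figure D1:**
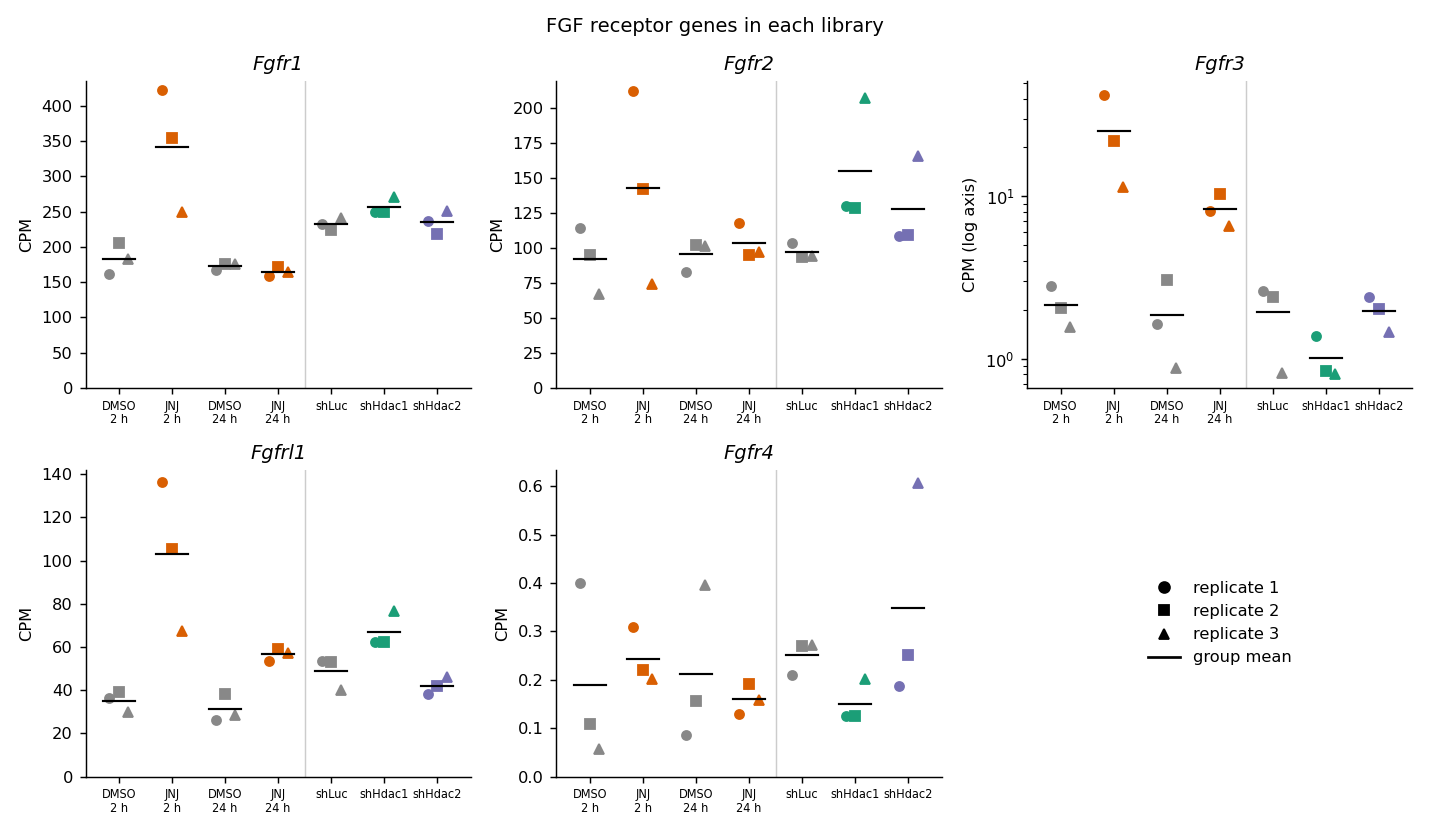
Level of each FGF receptor gene in CPM (vertical axis, logarithmic for Fgfr3) in each of the 21 libraries, by group. Symbols mark the replicate number and bars the group mean; Fgfr3 and Fgfrl1 stand above their DMSO libraries in all 6 JNJ libraries, whereas Fgfr1 at 24 h does not.

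At 2 h, Fgfr1, Fgfr2, Fgfr3 and Fgfrl1 had higher means with JNJ than with DMSO. These values chose the family and carry no test. Fgfr3 was at 42.1, 21.9 and 11.4 CPM in JNJ replicates 1, 2 and 3, and at 2.79, 2.04 and 1.55 CPM in DMSO. The lowest JNJ library lay above the highest DMSO library, and the fitted change was 11.8-fold (log2 3.56, SE 0.53). Without JNJ replicate 1 the log2 change was 2.96, and without JNJ replicate 3 it was 3.90. Fgfr3 stood 42nd from the top of 14467 genes by log2 change. In a shorter order of rises it was 5th, between Rhpn2 at 13.2-fold and Kifc2 at 10.6-fold. That order kept only genes past the threshold of the same contrast, with groups that did not overlap and a mean of 5 CPM or more. Fgfr3, at a mean of 2.13 CPM in DMSO 2 h, reached that level only through its JNJ libraries, so nothing is read from this place.

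Fgfrl1 at 2 h had 137, 105 and 67.4 CPM in JNJ against 36.3, 39.4 and 29.8 CPM in DMSO, a fitted 2.93-fold (log2 1.55, SE 0.24), with no overlap. Fgfr1, the most abundant receptor, was at 422, 355 and 249.5 CPM in JNJ and at 161, 206 and 183 CPM in DMSO, 1.87-fold higher (log2 0.90, SE 0.18) and again without overlap. For Fgfr2 the groups overlapped, with 212, 142 and 74.3 CPM in JNJ and 114, 95.1 and 67.1 CPM in DMSO (log2 0.63, SE 0.30). That log2 change was 0.22 without JNJ replicate 1 and 0.94 without JNJ replicate 3. Fgfr4 had 6 to 11 counts in JNJ and 2 to 14 in DMSO. For Fgfr1, Fgfr2, Fgfr3 and Fgfrl1, JNJ replicate 1 was highest and replicate 3 lowest, and these libraries were also farthest from and nearest to DMSO on the first principal component. Of all genes tested at 2 h, 13.7% were called in either direction, 9.11% higher, and 11% had a fitted rise of at least 2-fold, as Fgfr3 and Fgfrl1 did. JNJ and DMSO were without overlap for 25.6% of genes. Since the contrast chose the family, nothing is read from these shares.

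Some marker sums of cell types also differed between JNJ and DMSO at 2 h. In these bulk libraries more cells that carry a transcript and more transcript per cell cannot be told apart. The 8 oligodendrocyte lineage markers summed to 85.4 to 184 CPM in JNJ 2 h against 58.1 to 63.97 CPM in DMSO 2 h. Of these sums, Cspg4 alone gave 173, 106 and 55.5 CPM in JNJ replicates 1, 2 and 3. It gave 45.3 and 52.3 CPM in DMSO replicates 1 and 2, while Olig1 led in DMSO replicate 3 (29.8 CPM). The rise of this sum thus lay mostly in 1 gene. The granule lineage markers summed to 708 to 1156 CPM against 1453 to 1537 CPM. Neither pair of ranges overlapped. The astroglial markers (692 to 963 against 632 to 767 CPM) and the fibroblast and meningeal markers (4.18 to 10.8 against 3.28 to 9.13 CPM) overlapped. Olig2, Sox10 and Mog of the oligodendrocyte list were under 1 CPM in every library, and the part of these shifts in the 2 h values was not tested.

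After 24 h with JNJ, Fgfr3 and Fgfrl1 were higher than in DMSO, and Fgfr1 and Fgfr2 were not called. Fgfr3 had 8.06, 10.3 and 6.58 CPM in JNJ replicates 1, 2 and 3 against 1.64, 3.05 and 0.875 CPM in DMSO. Every JNJ library lay above every DMSO library. The change was 4.46-fold (log2 2.16, SE 0.50, adjusted p = 0.00586, edgeR quasi-likelihood test), and Fgfr3 stood 1025th from the top of 14467 genes. Fgfrl1, the kinase-less receptor, had 53.7, 59.04 and 57.3 CPM in JNJ against 26.3, 38.4 and 28.5 CPM in DMSO. The JNJ libraries differed little among themselves and all lay above DMSO, 1.82-fold higher (log2 0.87, SE 0.24, adjusted p = 0.0137, edgeR). The Fgfrl1 call was lost without DMSO replicate 1 (log2 0.75, adjusted p = 0.0616) or DMSO replicate 3 (log2 0.80, adjusted p = 0.0551).

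Fgfr1 at 24 h had 158, 171 and 164 CPM in JNJ and 167, 175 and 175 CPM in DMSO. The groups overlapped within a narrow range, with a log2 change of -0.07 (approximate 95% confidence interval -0.43 to 0.29, edgeR adjusted p = 0.805). That interval uses a spread pooled with the 2 h libraries. With only the 24 h groups fitted, the SE of the change was 0.096 in place of 0.183. The sign of that change turned under 2 other scalings of the libraries, to 0.04 with upper-quartile scaling and to 0.09 with library totals. Fgfr2, with 118, 94.7 and 97.2 CPM in JNJ and 82.8, 102 and 102 CPM in DMSO, overlapped too (log2 0.11, 95% confidence interval -0.48 to 0.71, edgeR adjusted p = 0.809). Fgfr4 had 4 to 6 counts in JNJ and 3 to 14 in DMSO (log2 -0.41, SE 0.75, edgeR adjusted p = 0.712), and a difference was not detectable at this depth.

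The 2 of 5 members called at 24 h, both higher, stand beside 33.1% of all 14467 genes called in either direction, 18.1% of all genes higher and 15.1% lower. The 4791 genes behind that 33.1% became 6229 with only the 24 h groups fitted and 7152 with the replicate number as a block. The same 2 members were called in both settings, so nothing is read from 2 of 5 beside this share. JNJ and DMSO were without overlap for 55.5% of genes, and the median log2 change over all genes was 0.01. With upper-quartile scaling that median moved to 0.12 and with library totals to 0.17. The split of calls moved with it, from 2613 higher and 2178 lower to 2974 and 1687, and to 3170 and 1470. Relative to either shifted median, Fgfr1 remained within its standard error of 0. The summed astroglial markers were at 310 to 396 CPM in JNJ 24 h against 705 to 883 CPM in DMSO 24 h. Slc1a2 was the highest of them in each of these libraries (112 to 167 against 377 to 474 CPM). The 6 fibroblast and meningeal markers summed to 12.6 to 29.1 CPM in JNJ against 5.68 to 9.57 CPM in DMSO, with Col1a2 and Dcn under 1 CPM in both. Of these sums, Col1a1 alone gave 23.6, 20.3 and 7.97 CPM in JNJ 24 h replicates 1, 2 and 3. In DMSO 24 h, Col3a1 led in replicates 1 and 3 and Lum in replicate 2. The rise of the fibroblast and meningeal sum thus lay mostly in Col1a1. The granule lineage markers summed to 772 to 959 CPM in JNJ against 1422 to 1574 CPM, and the oligodendrocyte lineage markers, which overlapped, to 72.6 to 118 against 49.6 to 85.8 CPM. The part of these shifts in the receptor changes was not tested.

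**Figure D2:**
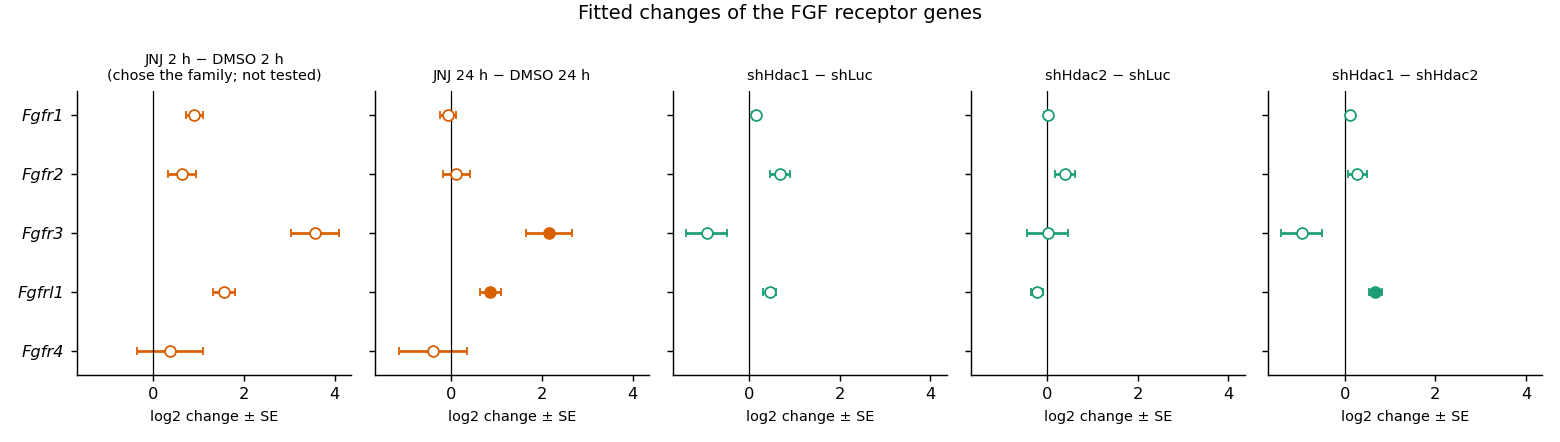
Fitted log2 change (horizontal axis, with its standard error) of each FGF receptor gene in 5 comparisons of 3 against 3 libraries, orange for JNJ and green for the hairpins. Filled points have an edgeR adjusted p under 0.05; Fgfr3 and Fgfrl1 are filled at 24 h and Fgfrl1 between the hairpins, the 2 h values were not tested, and Fgfr4 has no point in the hairpin comparisons.

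The fitted change with JNJ was lower at 24 h than at 2 h for each member. The 24 h change minus the 2 h change was -0.97 (log2, SE 0.26) for Fgfr1, -0.69 (SE 0.33) for Fgfrl1, -1.40 (SE 0.69) for Fgfr3 and -0.52 (SE 0.43) for Fgfr2. For Fgfr4, which had few counts, it was -0.77 (SE 1.05). Whether the members differ in this was not tested. These differences share the 2 h libraries that chose the family and carry no test. In the DMSO libraries alone, the 24 h level against the 2 h level was between -0.19 (Fgfr3) and 0.17 (Fgfr4) on the log2 scale. Fgfr1 was thus 1.87-fold above its control at 2 h and 0.953-fold its control at 24 h, while Fgfr3 was above its control at both times.

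On a scaling of all 21 libraries together, Fgfr3 was highest in JNJ 2 h (25.1 ± 15.6 CPM), followed by JNJ 24 h (8.22 ± 1.84 CPM), and these groups did not overlap each other or any other group. The other 5 groups lay between 1.01 ± 0.321 CPM in shHdac1 and 2.14 ± 0.623 CPM in DMSO 2 h and overlapped along the order. Fgfrl1 was highest in JNJ 2 h (103 ± 34.2 CPM), then in shHdac1 (67.1 ± 8.52) and JNJ 24 h (56.1 ± 2.81), and lowest in DMSO 24 h (30.95 ± 6.22), and shHdac1 overlapped JNJ 2 h but not JNJ 24 h. For Fgfr1 the order was JNJ 2 h (342 ± 85.2 CPM), shHdac1 (257 ± 13.0), shHdac2 (236 ± 17.8), shLuc (233 ± 10.5), DMSO 2 h (184 ± 21.4), DMSO 24 h (172 ± 5.27) and JNJ 24 h (163 ± 6.50). All 9 shRNA libraries were above all 9 libraries of DMSO and JNJ 24 h for this gene, a difference between sets that were handled in different ways, and every other pair of neighbours in this order overlapped. Fgfr2 ranged from 92.7 ± 23.5 CPM in DMSO 2 h to 155 ± 45.7 CPM in shHdac1, and neighbouring groups in its order differed by less than their spread.

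The receptor mix moved with Fgfr3 as well. Fgfr3 made up 0.766% of the summed per-kilobase level of Fgfr1 to Fgfr4 in DMSO 24 h (0.351 to 1.21% across libraries) and 3.34% in JNJ 24 h (2.74 to 4.15%). In DMSO 2 h the share was 0.856% and in JNJ 2 h 5.18% (3.86 to 6.93%). The summed level itself was 57.97 ± 1.90 CPM per kilobase in JNJ 24 h and 56.7 ± 3.66 in DMSO 24 h, which differ by less than their spread. At 2 h the sums were 107 ± 36.3 with JNJ and 58.7 ± 5.10 with DMSO. Even at its highest, Fgfr3 remained a minor part of the receptor RNA.

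**Figure D3:**
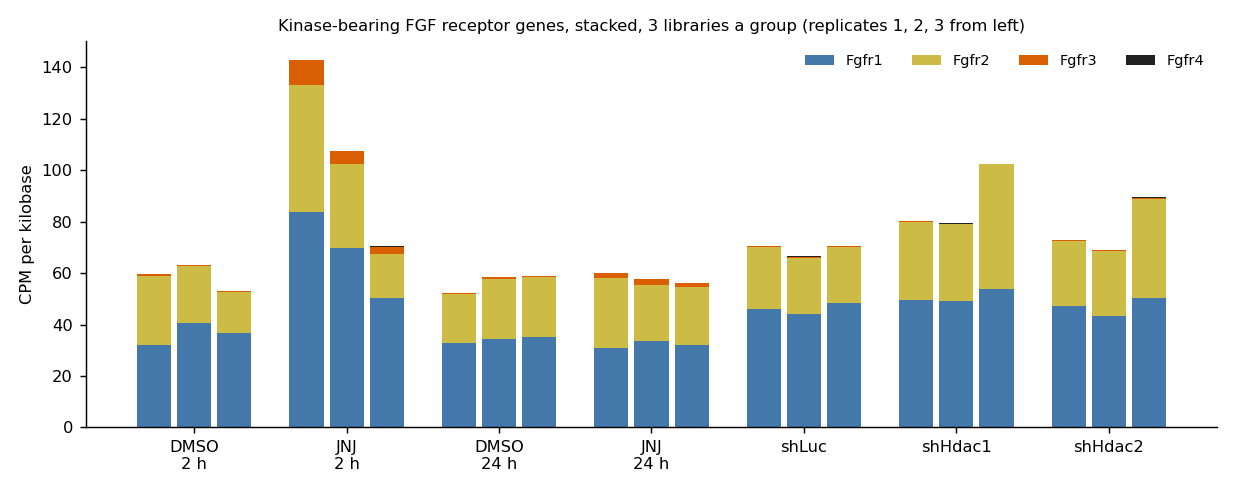
Stacked levels of the kinase-bearing receptor genes Fgfr1, Fgfr2, Fgfr3 and Fgfr4 in CPM per kilobase of longest transcript (vertical axis) in each of the 21 libraries, 3 per group in the order of replicates 1, 2 and 3. The Fgfr3 segment is 3.34% of the column on average in JNJ 24 h and under 1% on average in the DMSO and hairpin groups, and the columns at 24 h have like heights.

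Fgfr3 was not called higher with either hairpin. In shHdac1, Fgfr3 had 1.38, 0.841 and 0.803 CPM against 2.61, 2.39 and 0.818 CPM in shLuc. The groups overlapped through shLuc replicate 3, the library that stood apart, and the change was not called (log2 -0.94, SE 0.46, edgeR adjusted p = 0.464). Without that library, Fgfr3 was called lower in shHdac1 (log2 -1.30, edgeR adjusted p = 0.0400), in a comparison in which 1512 genes in place of 102 were then called. In shHdac2, Fgfr3 had 2.40, 2.01 and 1.46 CPM, in the range of shLuc (log2 0.02, 95% confidence interval -0.85 to 0.89, edgeR adjusted p = 0.993). The upper bound of that interval lies under the 24 h change with JNJ, but the difference between hairpin and drug effects was not tested.

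Fgfr2 and Fgfrl1 had higher means in shHdac1 than in shLuc, and neither was called. Fgfr2 had 129.6, 129 and 207 CPM in shHdac1 and 103, 93.7 and 94.05 CPM in shLuc. The groups did not overlap, as for 16.7% of genes in this comparison (log2 0.68, SE 0.22, edgeR adjusted p = 0.225). In shHdac2 it had 109, 109 and 166 CPM, above all shLuc libraries as 21.2% of genes were above or below (log2 0.40, SE 0.22, edgeR adjusted p = 0.418). Replicate 3 was the highest in both knockdown groups, and the 8 oligodendrocyte lineage markers also summed highest there, at 294 CPM in shHdac1 replicate 3 and 234 CPM in shHdac2 replicate 3 against 68.5 to 91.2 CPM in the other 4 knockdown libraries. Olig1 led those sums, and the granule lineage markers summed to 1081 to 1185 CPM in shHdac1 and 1197 to 1211 CPM in shHdac2 against 1359 to 1514 CPM in shLuc. The part of these markers in the receptor values was not tested. The Fgfr2 log2 change was 0.41 in shHdac1 without its replicate 3 and 0.18 in shHdac2 without its replicate 3.

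Fgfrl1 differed between the hairpins. It had 62.1, 62.2 and 76.6 CPM in shHdac1, 38.05, 42.1 and 45.97 CPM in shHdac2, and 53.4, 53.03 and 40.2 CPM in shLuc. Each shHdac1 library lay above each library of the other 2 groups, and shHdac2 overlapped shLuc. The change was 0.45 in shHdac1 (SE 0.14, edgeR adjusted p = 0.203) and -0.22 in shHdac2 (SE 0.14, edgeR adjusted p = 0.501), 2 comparisons that share the shLuc libraries. Directly compared, shHdac1 was 1.59-fold above shHdac2 (log2 0.67, SE 0.14, edgeR adjusted p = 0.0458), without overlap, as were 26.7% of genes. That call was lost when any 1 of the 6 libraries was left out (adjusted p 0.0702 to 0.190) and in 3 further settings (adjusted p 0.0570 to 0.218).

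Fgfr1 was not called in any hairpin comparison, with 250.3, 249 and 271 CPM in shHdac1, 237, 218 and 251 CPM in shHdac2 and 232, 224 and 242 CPM in shLuc. Its log2 change was 0.14 in shHdac1 (95% confidence interval -0.01 to 0.30, edgeR adjusted p = 0.547) and 0.02 in shHdac2 (interval -0.14 to 0.17, edgeR adjusted p = 0.949). Fgfr4 had 3 to 15 counts in the 9 shRNA libraries. So 0 of 4 members were called in either knockdown against shLuc, where 0.749% of 13612 genes were called with shHdac1 and 1.68% with shHdac2, and 1 of 4 between the hairpins, where 2.06% were called. At an unadjusted p under 0.05 the numbers of genes were 1687, 2158 and 1948. With the replicate number as a block, 523, 801 and 886 genes were called in place of 102, 229 and 280, and the same single member.

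The ligands measured with these receptors were few. Of 18 ligand genes, 8 were tested in the JNJ and DMSO libraries. At 24 h 1 was called higher and 0 lower, 12.5% against the 33.1% of all genes. Fgf8, a ligand of cerebellar and midbrain patterning, had 17.1, 8.997 and 9.77 CPM in JNJ against 4.09, 3.65 and 3.87 CPM in DMSO, 3.10-fold higher (log2 1.63, SE 0.34, edgeR adjusted p = 0.00315). All JNJ libraries exceeded DMSO. Fgf9, the ligand gene with the most counts among those named here and a ligand that FGFR3 binds well, was at 55.3 ± 15.8 and 49.5 ± 10.9 CPM (log2 0.16, edgeR adjusted p = 0.682). Fgf1, which binds all FGF receptors, was at 1.74 ± 0.883 CPM in JNJ (log2 -0.52, edgeR adjusted p = 0.415). Fgf2 had 0 to 6 counts per library and was not tested. The 4 FGF homologous factors stay inside the cell and bind sodium channels rather than receptors. Of them Fgf11 (4.01-fold) and Fgf12 (2.66-fold) were called higher and 0 lower, 50% against the 33.1% of all genes.

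Among 15 tested co-receptors and extracellular cofactors, 3 were higher and 1 lower at 24 h, 26.7% against the 33.1% of all genes. Sdc4, a heparan sulphate carrying syndecan, rose from 2.90 ± 3.00 to 15.5 ± 4.63 CPM (5.31-fold, edgeR adjusted p = 0.0375). Gpc3, a glypican, rose 3.35-fold to 55.8 ± 17.1 CPM (edgeR adjusted p = 0.00552). The FLRT genes, whose proteins can associate with FGF receptors, went both ways, with Flrt1 at 2.68-fold and Flrt2 lower by a log2 of -1.14. Of 13 heparan sulphate synthesis genes, 3 were higher and 4 lower, 53.8% against the same 33.1%. Hs6st1, a 6-O-sulphotransferase, was at 1.66-fold, and the sulphotransferases Ndst1 (log2 -0.75), Ndst2 (log2 -0.78) and Hs6st2 (log2 -0.88) were lower. The other 3 called genes, named after their values were seen, were Ndst4 (2.55 against 0.725 CPM) and Hs3st1 (0.504 against 0.038 CPM), both higher, and Extl3 (log2 -0.59), lower.

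Of 26 tested adaptors and transducers downstream of the receptors, 2 were called higher and 2 lower at 24 h, 15.4% against the 33.1% of all genes, with a median log2 change of -0.01 against 0.01. Gab2 (2.64-fold) and Shc1 (1.78-fold), docking and adaptor genes, were higher, and Nras (log2 -0.79), a RAS gene, was among the lower. Frs2, the main docking gene of FGF receptors, was at 72.03 ± 6.06 CPM in JNJ and 74.3 ± 4.31 CPM in DMSO (log2 -0.05, edgeR adjusted p = 0.869). Of 13 targets and feedback inhibitors of FGF and ERK signalling, 2 were higher and 0 lower, 15.4% against the same 33.1%. Il17rd, which encodes SEF, an inhibitor that binds FGF receptors, had 26.9, 38.97 and 44.9 CPM in JNJ against 4.09, 6.65 and 2.65 CPM in DMSO, 8.25-fold higher (log2 3.05, SE 0.49, edgeR adjusted p = 0.000689). All 3 JNJ libraries lay far above DMSO.

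Dusp5, a phosphatase of nuclear ERK, was at 2.47-fold (edgeR adjusted p = 0.00556). The usual readouts of FGF and ERK activity were not called. Dusp6 had a log2 change of 0.08 (edgeR adjusted p = 0.847), Etv5 of 0.07 (0.827), Spry2 of 0.36 (0.282) and Etv4 of 0.75 (0.0963), the values in parentheses being adjusted p. Over the whole pathway, 13 of 79 tested genes were higher and 7 lower, 25.3% against the 33.1% of all genes, with a median log2 change of 0.07. Of 47 other receptor tyrosine kinases, 20 were higher and 4 lower, 51.1%, with a median of 0.54. Ret rose from 0.301 ± 0.0665 to 22.8 ± 4.18 CPM (74.6-fold), against 4.46-fold for Fgfr3. Erbb3 was at 3.46 against 0.111 CPM, and Ntrk3 (log2 -1.23), Ddr2 (log2 -1.21) and Ror2 (log2 -0.80) were lower. The pathway lists share the libraries of the receptor comparison, and no difference between lists was tested.

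**Figure D4:**
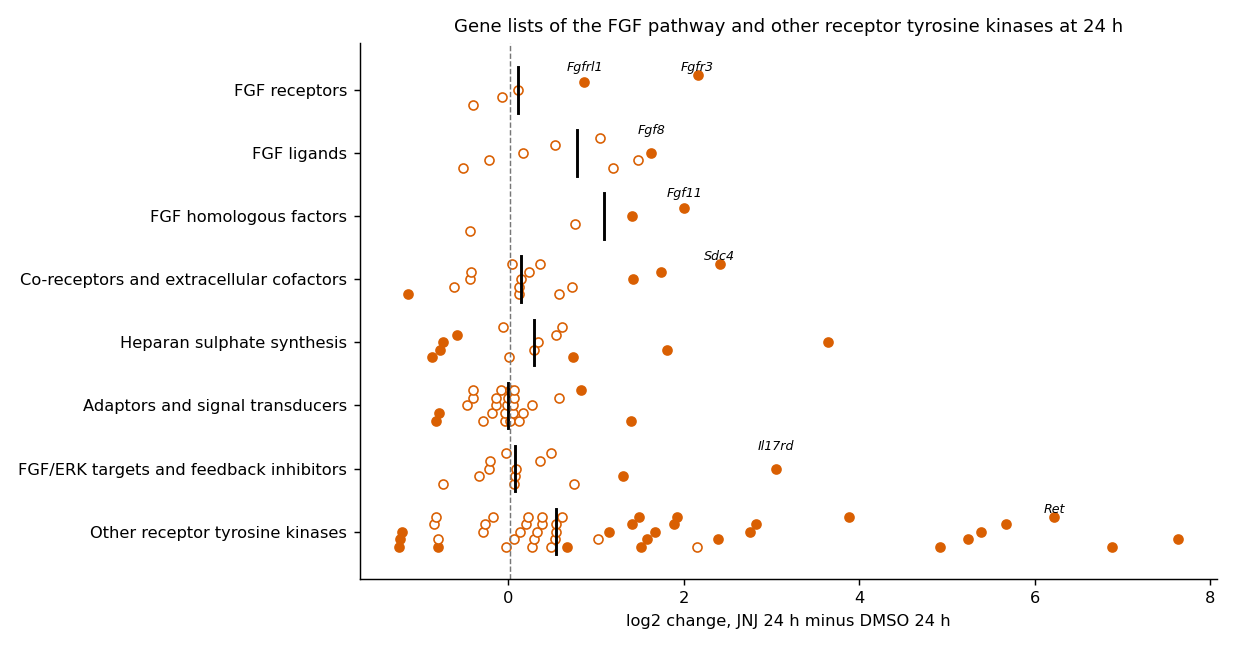
Log2 change after 24 h with JNJ (horizontal axis) of each tested gene of the FGF receptors, 6 lists of FGF pathway genes and the other receptor tyrosine kinases (rows). Filled points have an edgeR adjusted p under 0.05, black bars are list medians and the dashed line is the median of all genes at 0.01; Fgfr3 lies at 2.16 and Il17rd at 3.05, while the adaptors centre on -0.01.

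At 2 h, 10 of the 79 pathway genes passed the threshold upwards and 2 downwards, 15.2% against the 13.7% of all genes, from the contrast that chose the family. Fgf8 was at 11.04 ± 4.81 against 2.43 ± 0.0422 CPM, Il17rd at 11.4 ± 5.37 against 3.86 ± 1.91 CPM and Fgf9 at 80.7 ± 24.2 against 42.9 ± 8.83 CPM. In the hairpin comparisons 77 pathway genes were tested. Glce, a heparan sulphate epimerase, was the 1 gene called in shHdac1, lower (log2 -0.66, edgeR adjusted p = 0.0114), or 1.30% against the 0.749% of all genes. In shHdac2, 3 genes were lower, the glypican Gpc1 (log2 -0.54), the exchange factor Sos2 (log2 -0.57) and the ERK pathway inhibitor Spred2 (log2 -0.43), or 3.90% against 1.68%. Between the hairpins Spred2 was higher in shHdac1 (log2 0.51) and Glce lower (log2 -0.36). Those 2 genes are 2.60% against 2.06%. Each of these counts was 7 with the replicate block and 0 with all 21 libraries in 1 fit, both knockdowns against shLuc had 0 with only the groups compared, and leaving out a library gave 0 to 17 in shHdac1, 0 to 8 in shHdac2 and 0 to 2 between the hairpins. Both highest counts against shLuc were those without shLuc replicate 3, and the shHdac2 count was 0 without any other single library.

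Of the genes next to the receptors on their chromosomes, by RefSeq order, 8 of 10 were tested at 24 h. Gm39147 beside Fgfr1 and Rnf212 beside Fgfrl1 had no tested value. Beside Fgfr3 lie Letm1, a mitochondrial ion exchanger gene, which was lower at 24 h (log2 -0.48, edgeR adjusted p = 0.0246), and Tacc3, a spindle gene, which was not called (log2 -0.48, edgeR adjusted p = 0.163). Beside Fgfrl1, Idua was not called (log2 -0.36, edgeR adjusted p = 0.584). Beside Fgfr4, which had few counts, Zfp346 was higher (log2 0.89, edgeR adjusted p = 0.00282) and Nsd1 lower (log2 -1.32, edgeR adjusted p = 0.00125). Letm2 beside Fgfr1 (log2 0.30) and Wdr11 and Ate1 beside Fgfr2 (log2 -0.21 and 0.25) were not called. Of 3 genes farther along that were added after values were seen, Whsc1 (Nsd2) near Fgfr3, a histone methyltransferase gene, was lower (log2 -1.25, edgeR adjusted p = 0.000263). Tacc1 near Fgfr1 was higher (log2 0.55, edgeR adjusted p = 0.0176), and Whsc1l1 (Nsd3) near Fgfr1 was not called (log2 0.22, edgeR adjusted p = 0.390).

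Genes with the profile most like each member were found by the root mean square difference of centred log2 CPM over the 21 libraries, over genes averaging 5 CPM or more. For Fgfr3 they were Mcam (0.603), Metrnl (0.649) and Stbd1 (0.655). For Fgfrl1 they were Cyp39a1 (0.288), Syngr3 (0.289) and Lrpap1 (0.293). Fgfr1 was followed most closely by Sidt2 (0.153), Slc37a4 (0.170) and Tbl2 (0.181), and Fgfr2 by Tmem198b (0.200), Jkamp (0.217) and Prcp (0.229). Within the family the smallest difference was that of Fgfr1 and Fgfr2 (0.338) and the largest that of Fgfr2 and Fgfr3 (1.53). By Pearson correlation the same 3 genes came first for Fgfr1 and for Fgfr2, and other genes for Fgfr3 (Fchsd1, 0.955) and Fgfrl1 (Tmem86a, 0.878). The libraries share groups and scaling, so these values only describe likeness.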

How the data were processed

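RNA of 21 libraries (TruSeq Stranded mRNA kit, single-end 75 bp reads in 2 runs, per the labels' protocols) was aligned with STAR 2.5.1b to mm9, per the submitters' processing notes. The authors deposited raw counts of reads for each gene symbol and library. For the annotation, the counted strand and multi-mapping reads, the method is not given in the sources used here, and reads shared with paralogs or overlapping genes are therefore uncertain. With edgeR 4.0.16 (R 4.3.3), 1 fit took the 12 JNJ and DMSO libraries and another the 9 shRNA libraries. Group was the only term. Each fit pooled the spread of all its groups, so the 24 h tests also drew on the spread of the 2 h libraries. With only the 24 h groups fitted, the edgeR adjusted p was 0.00753 for Fgfr3 and 0.00425 for Fgfrl1. The filter filterByExpr, with a minimum count of 10 and a minimum total of 15, left 14467 and 13612 of 24047 genes. TMM scaling factors were 0.883 to 1.15 and 0.961 to 1.03. Two-sided quasi-likelihood tests received a Benjamini-Hochberg adjustment across every tested gene, and adjusted values under 0.05 were called. CPM use the scaled totals of each fit. Standard errors are of the log2 change, and the approximate 95% intervals, from the normal distribution, are not adjusted for the number of genes. Precision at low levels is limited by counting.

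The other settings were RLE, upper-quartile or no scaling, no count filter, DESeq2 1.42.0, only the groups compared, all 21 libraries together, a replicate block, and each library left out. Replicate numbers come from the labels. Deviations of same-numbered libraries from their group means correlated above 0.1 at 24 h (0.568 to 0.648) and in the shRNA groups (0.205 to 0.740), which was taken as pairing. At 2 h they were 0.00048, 0.647 and 0.585 for replicates 1, 2 and 3, which was not. In the shRNA groups the numbers 1 and 2 were not told apart (shLuc replicate 2 with shHdac2 replicate 1, 0.359, and with shHdac2 replicate 2, 0.205).

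From each list the called genes with the lowest p were named (up to 3 each way, at a mean of at least 1 CPM), with a few named in any case (Fgf1, Fgf2, Fgf9, Frs2, Spry2, Dusp6, Etv4, Etv5). A few genes so named are not reported here. Members and lists were chosen with earlier results of these data known. Positions and promoter sequences are from RefSeq (GRCm38.p6), transcript lengths from GENCODE M21.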

Additional observations from a re-analysis of the deposited data

Results flagged for a closer look

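The Fgfrl1 difference between the hairpins, a log2 of 0.67 for shHdac1 minus shHdac2 (edgeR adjusted p = 0.0458), is a difference between the effects of both knockdowns against the same shLuc libraries, and it stands close to the threshold. Leaving out any 1 of the 6 libraries of both hairpins moved the edgeR adjusted p above 0.05, while the log2 change stayed at 0.56 to 0.73.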

How the results depend on the processing

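The direction and call of Fgfr3 at 24 h held in all 14 other settings (log2 1.81 to 2.70, highest adjusted p 0.0260). Fgfrl1 at 24 h ranged from 0.75 to 1.03, with its call lost without DMSO 24 h replicate 1 or 3. Fgfr1 at 24 h turned to 0.0356 with upper-quartile scaling and 0.0889 with library totals, and Fgfr4 ranged from -0.78 to 0.37 over the left-out libraries, turning sign without DMSO 24 h replicate 3. At 2 h, Fgfr4 ranged from -0.084 (without DMSO 2 h replicate 3) to 1.48 (without DMSO 2 h replicate 1). The replicate block changed no member's call (Fgfr3 at 24 h 2.28, Fgfrl1 0.88). Fgfr3 in shHdac1 ranged from -1.30 to -0.67, called without shLuc replicate 3. In shHdac2, Fgfr1 ranged from -0.0242 to 0.0756, turning sign without shLuc replicate 2 (-0.0121) or shHdac2 replicate 3 (-0.0242), and Fgfr3 from -0.34 to 0.29, turning without shLuc replicate 3 (-0.34) or shHdac2 replicate 1 (-0.16). Fgfrl1 between the hairpins ranged from 0.56 to 0.73 over the left-out libraries, and lost its call with upper-quartile scaling (0.66, adjusted p = 0.0668), library totals (0.66, adjusted p = 0.0570) and all 21 libraries in 1 fit (0.67, adjusted p = 0.218).

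Counts of called genes moved more, and the cause was not tested. At 24 h the count of all genes, 4791, was 6229 with only the groups compared, 5961 with all 21 libraries and 7152 with the replicate block. Over the left-out libraries it was 3393 to 4021. The pathway count at 24 h, 20, was 28, 24, 25 and 16 to 18 in the same order. At 2 h the count of all genes, 1982, was 650 with only the groups compared, 3185 with all 21 libraries, 3773 with the replicate block and 1043 to 3365 over the left-out libraries, and the pathway count, 12, was 3 with only the groups compared and 5 to 20. For shHdac1 against shLuc (102 genes) the counts were 580 with DESeq2, 5 with only the groups compared, 8 with all 21 libraries, 523 with the block and 2 to 1512. The 1 pathway call became 3 with upper-quartile scaling and with library totals, 7 with DESeq2 and with the block, 0 with only the groups compared and with all 21 libraries, and 0 to 17. For shHdac2 against shLuc (229 genes) the counts were 892, 19, 27, 801 and 12 to 1212 in the same order, and the 3 pathway calls became 1 without the count filter, 7 with DESeq2 and with the block, 0 with only the groups compared and with all 21 libraries, and 0 to 8. Between the hairpins (280 genes) they were 857, 603, 76, 886 and 30 to 272, and the 2 pathway calls became 1 without the filter, 5 with DESeq2 and with only the groups compared, 0 with all 21 libraries, 7 with the block and 0 to 2. In both comparisons with shLuc, the highest counts over the left-out libraries were those without shLuc replicate 3. Depth limits Fgfr4, at 2 to 15 counts, and Fgfr3 in the control and hairpin groups, at 20 to 118 counts.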
